A study of Homo sapiens with 6 samples.

Results

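The SREBP pathway is described here in the established human ovarian cancer line OVCAR5 through 8 genes that were chosen by name: SREBF1, SREBF2, SCAP, INSIG1, INSIG2, MBTPS1, MBTPS2 and MYLIP. All 8 were found among the 62656 genes of the deposited tables by their Ensembl identifiers, and all 8 were among the 19029 genes expressed enough to be tested. RNA was sequenced from cells kept for 3 days with 100 nM NTX301, which the labels name as a DNA hypomethylating agent, or with its solvent DMSO, with 3 libraries each. No genetic change is labelled in either group, and both groups are the same cell line. The labels do not say if the libraries within a treatment are separate cultures, so p-values measure only the spread between these libraries, which may be technical.

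SREBF1 and SREBF2 encode the sterol regulatory element-binding proteins, transcription factors made as inactive precursors in the membrane of the endoplasmic reticulum (ER). SCAP, their escort, senses cholesterol, and when sterols are plentiful the INSIG proteins hold SCAP and its cargo in the ER. When sterols fall, SCAP carries the precursor to the Golgi, where the proteases encoded by MBTPS1 and MBTPS2 cut it in turn and release the part that enters the nucleus and switches on genes of lipid synthesis and uptake. MYLIP, also called IDOL, works from the other side: it is a ubiquitin ligase, induced by the oxysterol receptors LXR, that marks receptors of lipoproteins for destruction. SREBF2 and INSIG1 are themselves known targets of SREBPs.

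The promoters of SREBF1, INSIG1 and SREBF2 are shown because these genes fell most, with that of MBTPS2, which was not called, beside them. Each window runs from 250 bases before to 50 bases after a RefSeq start site (GRCh38.p14), 5′ to 3′ on the strand of the gene. Capitals mark matches, on either strand, to any of 4 motifs, none of which contains another. The first was TCACNCCAC, a sterol regulatory element of the kind that SREBPs bind. CACGTG, the E-box, is bound by proteins of the same basic helix-loop-helix class. The CCAAT box was searched by its 5 letters and is known to act beside sterol elements in such promoters. A GC box, bound by the SP family of factors, was searched for as GGGCGG. The windows are chr22:41832855-41833154 on the plus strand for SREBF2, chr7:155297628-155297927 on the plus strand for INSIG1, chr17:17836937-17837236 on the minus strand for SREBF1 and chrX:21839367-21839666 on the plus strand for MBTPS2.
SREBF2: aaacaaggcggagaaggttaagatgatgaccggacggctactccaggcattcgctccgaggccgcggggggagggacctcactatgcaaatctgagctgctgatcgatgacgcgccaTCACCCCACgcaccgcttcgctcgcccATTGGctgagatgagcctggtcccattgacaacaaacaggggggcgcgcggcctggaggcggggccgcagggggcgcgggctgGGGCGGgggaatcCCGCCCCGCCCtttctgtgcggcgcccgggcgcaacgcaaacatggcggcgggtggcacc
INSIG1: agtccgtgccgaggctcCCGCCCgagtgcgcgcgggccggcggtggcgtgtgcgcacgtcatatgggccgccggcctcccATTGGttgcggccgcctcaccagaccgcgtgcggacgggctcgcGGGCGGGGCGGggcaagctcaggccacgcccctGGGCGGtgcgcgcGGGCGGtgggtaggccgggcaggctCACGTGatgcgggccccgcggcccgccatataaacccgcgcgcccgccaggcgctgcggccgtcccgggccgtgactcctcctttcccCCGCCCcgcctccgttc
SREBF1: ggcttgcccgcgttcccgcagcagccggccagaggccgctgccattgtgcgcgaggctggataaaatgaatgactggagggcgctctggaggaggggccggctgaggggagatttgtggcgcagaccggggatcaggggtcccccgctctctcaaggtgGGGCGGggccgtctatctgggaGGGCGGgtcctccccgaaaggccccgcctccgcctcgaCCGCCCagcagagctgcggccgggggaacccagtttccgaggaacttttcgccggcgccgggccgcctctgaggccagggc
MBTPS2: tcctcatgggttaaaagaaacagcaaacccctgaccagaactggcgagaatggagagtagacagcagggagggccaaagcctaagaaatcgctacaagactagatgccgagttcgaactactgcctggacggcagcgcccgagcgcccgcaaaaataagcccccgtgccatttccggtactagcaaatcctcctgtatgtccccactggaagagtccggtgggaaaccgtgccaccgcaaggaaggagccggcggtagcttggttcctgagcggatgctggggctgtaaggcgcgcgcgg

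The SREBF2 window holds a match to the sterol regulatory element 133 bases before the start site, with a CCAAT box on the other strand 106 bases before it. Of 35116 RefSeq promoter windows of this length, 396 (1.13%) held such a match, and the windows of the other 7 genes did not. Known SREBP targets mostly lacked it as well: 0 of 16 sterol targets and 1 of 14 fatty acid targets with a window (MID1IP1) held these letters, so the search misses elements of other spelling or place. The INSIG1 window holds an E-box 55 bases before the start, a CCAAT box on the other strand and 6 GC boxes. E-boxes stood in 7.26% of all windows, CCAAT boxes in 34.6% and GC boxes in 45% of them. INSIG1 had 48 CpG dinucleotides in 300 bases, SREBF2 31, SREBF1 28 and MBTPS2 21, against a median of 14 over all windows. Among the genes whose windows are not shown, SCAP and MBTPS1 had 36, MYLIP 29 and INSIG2 27 or 30 by start site. The CpG counts thus did not follow the order of the falls. The SREBF1 window holds 3 GC boxes and covers 1 start site only, whereas SREBP-1 forms are known to arise from separate start sites. In MBTPS2, as in MBTPS1, none of these motifs was found in the window. These matches are letters in a window and say nothing about binding, and DNA methylation was not analysed here.

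With NTX301, 7 of the 8 genes fell and MBTPS2 was not past the threshold (edgeR with the quasi-likelihood test, p adjusted over all tested genes by Benjamini-Hochberg, threshold 0.05). Of all tested genes, 70.5% were called in either direction, 35.1% lower and 35.4% higher. Of these calls 50.25% were higher, against 65.01% without a scaling factor and 66.71% on log2(TPM + 1) with limma, where TPM is the deposited level corrected for gene length. SREBF1, SREBF2, INSIG1, INSIG2 and MBTPS1 fell by 2-fold or more, which 8.55% of tested genes did. INSIG2 and MBTPS1 fell by less than 2-fold without a scaling factor (-0.80 and -0.90) and on log2(TPM + 1) (-0.78 and -0.88), which leaves 3 such genes. INSIG2 lay just at that limit, and was short of it also with upper-quartile scaling (-0.98), without DMSO replicate 2 (-0.99) and without NTX301 replicate 2 (-0.999). The libraries of the treatments did not overlap for the 7 genes that fell, which held in that direction for 36.5% and in either direction for 73.7% of tested genes. The median log2 fold change of the 8 genes was -1.06, and that of all tested genes was 0.00. As the 8 genes were chosen with earlier results of these data known, this contrast describes them and is not a test. DMSO replicate 3 stood apart from the other DMSO libraries on the second principal component (-34.5, against 22.5 and 13.5). Without it the same 7 genes were called lower, with a log2 fold change of -2.24 for SREBF1, -1.70 for SREBF2, -1.87 for INSIG1, -1.03 for INSIG2, -0.96 for SCAP, -1.11 for MBTPS1 and -0.41 for MYLIP, and MBTPS2 was again not called (0.02). In bulk RNA, fewer cells of a kind and less RNA per cell cannot be told apart. Levels below are CPM, counts relative to the library total after TMM scaling, and the library totals ranged from 22131175 to 25743732 estimated counts.

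**Figure D1:**
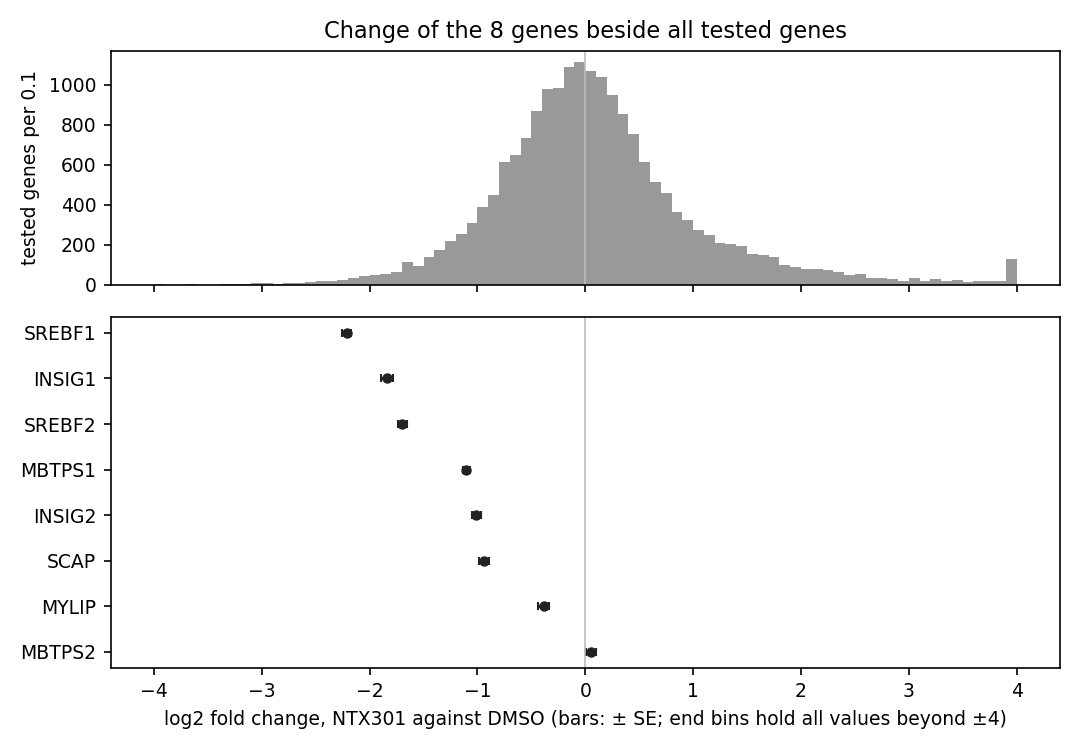
The upper panel counts tested genes by log2 fold change of NTX301 against DMSO, with values beyond 4 in either direction placed in the end bins, and the lower panel shows the 8 genes on the same axis, with bars of ± SE. SREBF1, INSIG1 and SREBF2 lie in the left tail, at -2.21, -1.84 and -1.69, and MBTPS2 lies near 0, at 0.05.

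Among the transcription factors, SREBF1 (chromosome 17, 17810399 to 17837002, minus strand, GENCODE 29 on GRCh38) encodes SREBP-1, which drives mainly fatty acid synthesis. Its level was 500.3, 484.4 and 466.4 CPM in the DMSO libraries and 102.9, 104.4 and 105.5 CPM in the NTX301 libraries. Every NTX301 library was thus far below every DMSO library, and the mean went from 483.7 ± 17.0 to 104.3 ± 1.27 CPM (SD, n = 3 each). The log2 fold change was -2.21 ± 0.04 (SE), a 4.64-fold fall with an edgeR adjusted p of 2.2e-11, and it had the 114th lowest value of the 19029 tested genes.
SREBF1 overlaps RAI1, a gene on the other strand, by 1055 bases at their 3′ ends. RAI1 fell by 0.99 on the log2 scale, and as no strand setting is stated, reads from the shared stretch may not have been separated.

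SREBF2 (chromosome 22, 41833079 to 41907308, plus strand) encodes SREBP-2, which drives mainly cholesterol synthesis and uptake. It stood at 141.5, 138.6 and 138.1 CPM with DMSO and at 43.06, 41.54 and 44.57 CPM with NTX301. The DMSO libraries lay within a few percent of one another, and the treatments were well apart (log2 -1.69 ± 0.04, 3.24-fold lower, edgeR adjusted p = 4.6e-11). An antisense gene inside it, SREBF2-AS1, had 29 counts over the DMSO and 24 over the NTX301 libraries, against at least 1056 in any library for SREBF2.

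Both SREBF genes carry a microRNA of the miR-33 family in an intron, which is known to lower cholesterol efflux, and the 2 mature strands are shown because they share their seed (bases 2 to 8, in capitals; RefSeq, GRCh38.p14).
hsa-miR-33a-5p: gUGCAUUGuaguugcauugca
hsa-miR-33b-5p: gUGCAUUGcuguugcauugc
The hairpin of miR-33a lies at chr22:41900944-41901012 in SREBF2 and that of miR-33b at chr17:17813836-17813931 in SREBF1, and neither overlaps an annotated exon of its host. The entry of MIR33A had 0 counts in all 6 libraries and that of MIR33B had 1 count, in a DMSO library. Mature microRNAs are not measured by these libraries, so the levels of the hosts are all that these data give.

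Of the genes for the ER retention machinery, INSIG1 (chromosome 7, 155297776 to 155310235, plus strand) encodes the anchor whose own gene is under SREBP control. It was at 132.3, 119.4 and 118.1 CPM with DMSO and at 34.07, 33.60 and 35.78 CPM with NTX301. DMSO replicate 1 was the highest of its group, and the 2 groups were separate (log2 -1.84 ± 0.05, 3.58-fold lower, edgeR adjusted p = 1.2e-10). INSIG2 (chromosome 2, 118088452 to 118110997, plus strand) encodes the second anchor, known to depend less on SREBPs. INSIG2 read 102.4, 105.4 and 99.79 CPM with DMSO and 50.64, 50.44 and 51.76 CPM with NTX301. It fell too, but by 2.01-fold (log2 -1.01 ± 0.04, edgeR adjusted p = 9.6e-10).

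SCAP (chromosome 3, 47413694 to 47477126, minus strand), the escort with a sterol-sensing domain, was at 78.97, 78.70 and 75.89 CPM with DMSO and at 41.77, 40.95 and 39.12 CPM with NTX301. The spread within each treatment was small beside the gap between them. SCAP fell 1.92-fold (log2 -0.94 ± 0.04, edgeR adjusted p = 3.4e-09), and 9.90% of tested genes had a value as low or lower.

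The 2 protease genes parted. MBTPS1 (chromosome 16, 84053761 to 84116906, minus strand) encodes the serine protease that makes the first cut, in the Golgi lumen. It was at 346.1, 349.2 and 343.3 CPM with DMSO and at 157.9, 163.1 and 162.9 CPM with NTX301, a 2.15-fold fall (log2 -1.10 ± 0.04, edgeR adjusted p = 2.7e-10). MBTPS2 (chromosome X, 21839636 to 21885424, plus strand) encodes the metalloprotease that makes the next cut, inside the membrane. MBTPS2 was at 43.38, 44.20 and 40.57 CPM with DMSO and at 43.42, 44.14 and 45.35 CPM with NTX301. The ranges overlapped, and the log2 fold change of MBTPS2 was 0.05 ± 0.05 (edgeR adjusted p = 0.3561). Without a scaling factor MBTPS2 was called higher (0.26, edgeR adjusted p = 0.000447), as it was on log2(TPM + 1) with limma (0.25, adjusted p = 0.005443). Over all alternatives its adjusted p lay between 0.000447 and 0.7646. Without a scaling factor the median of all tested genes lay at 0.21, so MBTPS2 was close to the typical gene on that scale as well. YY2, a gene that lies within MBTPS2 on the same strand, averaged 4.19 CPM with DMSO and 4.12 CPM with NTX301.

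MYLIP (chromosome 6, 16129125 to 16148248, plus strand) encodes the ubiquitin ligase of the LXR arm. Its level was 31.00, 30.00 and 29.15 CPM with DMSO and 22.74, 23.09 and 23.26 CPM with NTX301. All NTX301 libraries were below all DMSO libraries, by a modest amount (1.31-fold lower, log2 -0.38 ± 0.05, edgeR adjusted p = 2.7e-05), and 28.9% of tested genes had a value as low or lower. The call held in all alternatives, with adjusted p between 2.1e-06 and 0.0298, but the log2 fold change was smaller without a scaling factor (-0.18) and on log2(TPM + 1) (-0.16).

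**Figure D2:**
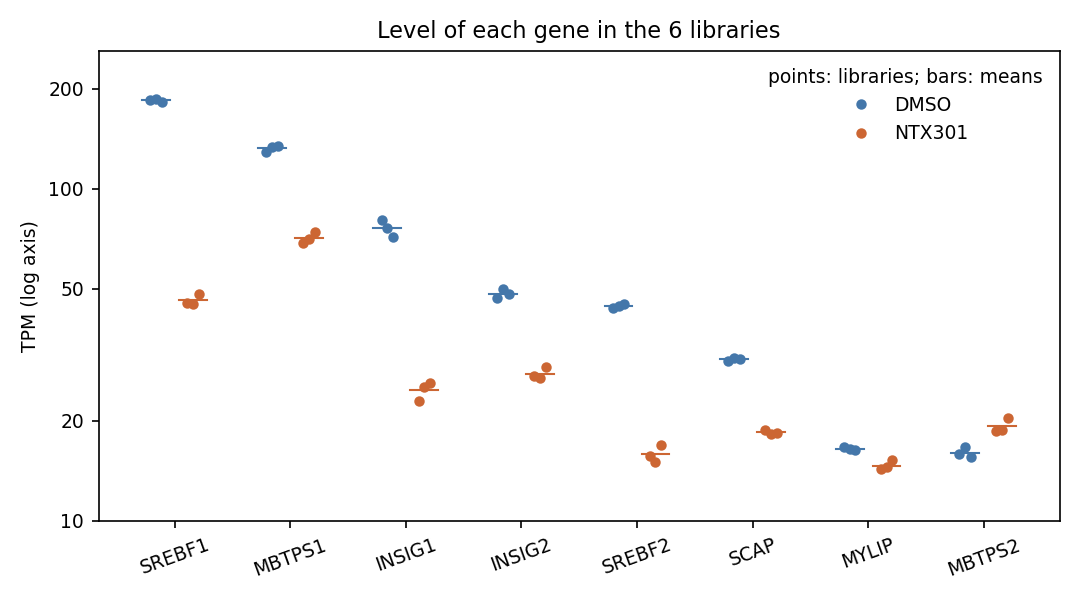
Points are the 6 libraries and bars are means, in TPM on a log axis, with the genes in their order with DMSO. SREBF1 is the highest with DMSO at 184.3 TPM and falls below MBTPS1 with NTX301, where the means are 46.1 and 71.2 TPM.

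Levels of the 8 genes were compared with one another in TPM only. With DMSO the order was SREBF1 (184.3 ± 2.17 TPM), MBTPS1 (132.2 ± 2.99), INSIG1 (76.2 ± 4.41), INSIG2 (48.3 ± 1.41), SREBF2 (44.3 ± 0.583), SCAP (30.7 ± 0.345), MYLIP (16.5 ± 0.145) and MBTPS2 (16.1 ± 0.540, all SD, n = 3). MYLIP and MBTPS2 overlapped in that order, and the other neighbours did not. With NTX301 the order in TPM was MBTPS1 (71.2 ± 2.76), SREBF1 (46.1 ± 1.77), INSIG2 (27.8 ± 1.17), INSIG1 (24.7 ± 1.59), MBTPS2 (19.3 ± 0.937), SCAP (18.5 ± 0.270), SREBF2 (15.9 ± 0.987) and MYLIP (14.7 ± 0.478). Neighbours whose ranges overlapped were MBTPS2 and SCAP, and SREBF2 and MYLIP. Summed over the 8 genes, the level was 543.4 to 553.7 TPM with DMSO and 231.5 to 248.3 TPM with NTX301. SREBF1 went from the 96.3rd to the 81.0th percentile of tested genes by TPM, and SREBF2 from the 82.2nd to the 59.1st.

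Because the 8 genes did not fall by the same amount, the balance within each library shifted. A ratio of 2 genes in 1 library does not depend on how libraries are scaled. SREBF1 to SREBF2 was 4.23, 4.21 and 4.04 with DMSO and 2.89, 3.00 and 2.85 with NTX301 in TPM, so SREBF1 remained the more abundant of the pair by a smaller margin. For INSIG1 to INSIG2 the ratio was 1.71, 1.53 and 1.49 with DMSO and 0.842, 0.938 and 0.892 with NTX301. INSIG1 was thus above INSIG2 in every DMSO library and below it in every NTX301 library.

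SCAP to SREBF2 moved the other way, from 0.692, 0.702 and 0.681 with DMSO to 1.20, 1.22 and 1.08 with NTX301. With the drug, SCAP transcripts outnumbered those of SREBF2, and SCAP also gained on INSIG1 (log2 difference of the ratio 0.89). MBTPS1 to MBTPS2 went from 8.11, 8.03 and 8.60 to 3.69, 3.75 and 3.65, so the excess of MBTPS1 over MBTPS2 shrank by 2.23-fold. SREBF2 to INSIG1 was the ratio whose treatments overlapped (0.544, 0.580 and 0.627 against 0.682, 0.593 and 0.652; log2 difference 0.14, two-sided exact permutation p = 0.2). The ratios of SREBF1 to SREBF2, INSIG1 to INSIG2, SCAP to SREBF2, SCAP to INSIG1 and MBTPS1 to MBTPS2 did not overlap, and each gave a two-sided exact permutation p of 0.1, the smallest that 3 libraries against 3 can give (0.1167 adjusted over the 7 ratios computed), so this design cannot take them past 0.05.

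**Figure D3:**
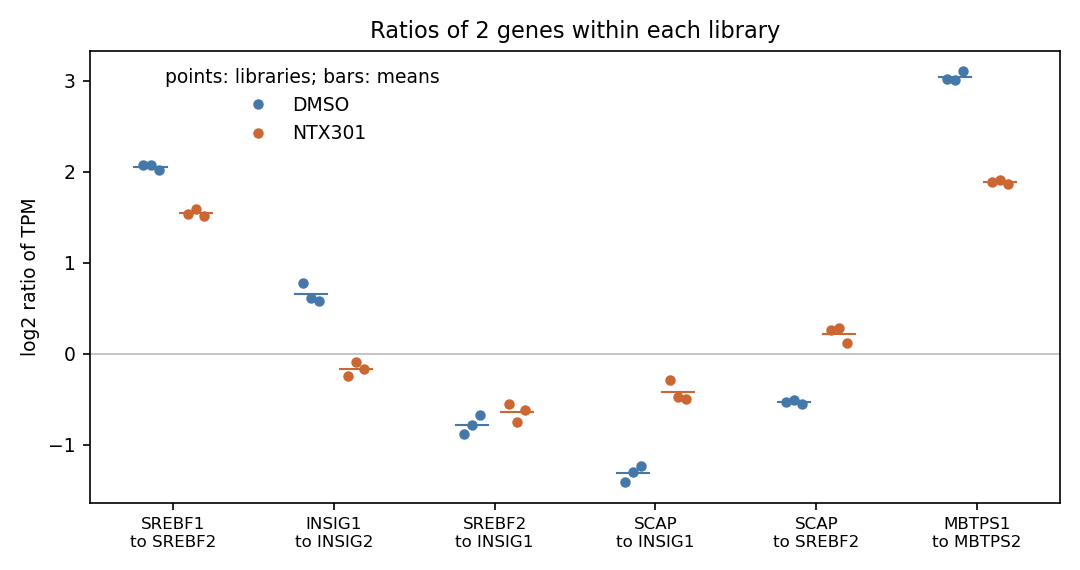
The log2 ratio of TPM of 2 genes is plotted for each of the 6 libraries, with bars for means. INSIG1 to INSIG2 crosses 0 from a mean of 0.66 with DMSO to -0.17 with NTX301, SCAP to SREBF2 crosses it upward from -0.53 to 0.22, and SREBF2 to INSIG1 overlaps between treatments.

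The mix of transcripts within a gene was read from the mean transcript length that the tables give per library. SREBF1, with 3 annotated transcripts in the tables, averaged 4384.0 ± 14.9 bases with DMSO and 4368.8 ± 24.1 with NTX301 (SD, n = 3 each), and the libraries overlapped. INSIG1 varied most, between 2655.3 and 2844.6 bases with DMSO and between 2552.0 and 2860.9 with NTX301. In none of the 8 genes were the treatments apart, and the lowest two-sided exact permutation p was 0.3, for SREBF2. Lengths for INSIG2, with 1 transcript, and for MBTPS1 did not vary between libraries. A shift between transcripts of equal length would not show in this measure.

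Profiles across the 6 libraries were compared with 12050 tested genes that averaged at least 5 CPM, by the root mean square difference of log2 CPM after centring each gene on its own mean. The 3 closest to INSIG1 were DHCR7, the cholesterol synthesis reductase, at 0.045, HCAR1, a lactate receptor, at 0.048 and NTHL1, a base excision repair glycosylase, at 0.052. Closest to SREBF2 were PTPRJ, a receptor tyrosine phosphatase, at 0.026, DDIT4, an inhibitor of mTORC1 signalling, at 0.028 and CASTOR3P at 0.042. For SREBF1 they were DHRS3, a retinaldehyde reductase, at 0.040, the potassium channel KCNQ1 at 0.050 and the BMP receptor BMPR1B at 0.069. SCAP lay nearest to KDM4B, CTNNBIP1 and TRNP1 (0.015 to 0.019), INSIG2 to CTDSP1, CXXC5 and ZC3H7B (0.015 to 0.019) and MBTPS1 to PFKFB3, HOXB6 and RXRA (0.017 to 0.021). MBTPS2 lay nearest to PHF23, SH3GL1 and COPS7B (0.021 to 0.023) and MYLIP to LRATD2, CDCA7L and MIER1 (0.015 to 0.016). As for MYLIP, the log2 values of its closest genes were smaller without a scaling factor, where LRATD2, CDCA7L and MIER1 were at -0.19, -0.16 and -0.19, and CTNNBIP1 and BMPR1B had smaller falls on log2(TPM + 1) (-0.45 and -1.48) than by edgeR (-0.95 and -2.23). With 2 treatments of 3 libraries, this likeness reflects mainly a change of the same size. Among the 8 genes themselves, INSIG2 and MBTPS1 were the closest pair (0.052), followed by SCAP and INSIG2 (0.054) and by SREBF2 and INSIG1 (0.082). KCNQ1 and NTHL1 overlap KCNQ1OT1 and TSC2 on the other strand, which averaged more CPM than they did, so their values are uncertain.

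The known targets of the pathway were taken from lists, which were chosen with earlier results of these data known. Over all tested genes 35.1% were called lower and 35.4% higher, which is the background for the counts of each list. Of 23 cholesterol synthesis and uptake genes, driven mainly by SREBP-2, 21 fell, ACAT2 rose and PMVK was not past the threshold, with a median log2 fold change of -0.81. DHCR7, which makes the last step of cholesterol synthesis, was at 259.5, 251.9 and 250.1 CPM with DMSO and at 69.71, 72.74 and 73.81 CPM with NTX301 (log2 -1.82 ± 0.04), with no overlap between treatments. LSS, which closes the sterol ring, fell by 1.70 on the log2 scale. ACAT2, a cytosolic thiolase at the head of the pathway, rose by 0.31 (0.52 without a scaling factor).

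Of 15 tested fatty acid and glycerolipid genes, driven mainly by SREBP-1, 13 fell, GPAM rose and FADS2 was not past the threshold (median -1.02). Some of these falls were small and depended on scaling. MID1IP1 (-0.15) was at 0.05 without a scaling factor and was called higher on log2(TPM + 1) (0.16, limma adjusted p = 0.04177). ACLY (-0.22) was at -0.02 without a scaling factor and not past the threshold on log2(TPM + 1) (-0.01, limma adjusted p = 0.8435). The desaturase SCD fell by 3.23, the synthase FASN by 2.31, the elongase ELOVL6 by 1.65 and the carboxylase ACACA by 1.29 on the log2 scale. SCD and FASN were thus the 2 genes of this list that fell by more than SREBF1 did. THRSP was too low to be tested.

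The genes that handle the SREBP complex were taken next. Of 15 ubiquitin ligases and cofactors acting on INSIG, SCAP or SREBP, 8 fell and 3 rose (median -0.19), none of them by 2-fold. RNF145, a ligase that acts on SCAP, fell by 0.83 and TMUB1, an ER ubiquitin-like protein, by 0.62, while PAQR3, a Golgi anchor of SCAP, rose by 0.68 on the log2 scale. Of 11 genes of the COPII coat, the vesicle coat that carries SCAP out of the ER, 7 fell and 2 rose (median -0.22). The cargo adaptors SEC24D, SEC24C and SEC24A fell by 0.77, 0.60 and 0.54 on the log2 scale, and SEC23B rose by 0.45. SEC24C and SEC24A were at -0.39 and -0.33 without a scaling factor. SEC24A, at a mean of 63.2 CPM, overlaps SAR1B, at 66.6 CPM, on the other strand, so the value of SEC24A is uncertain. Without a scaling factor, the number that rose was 6 of the ligases and cofactors and 5 of the coat genes.

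All 8 genes for other proteins cut by the same proteases were called, 6 lower and 2 higher (median -0.42), where 70.5% of all tested genes were called. On log2(TPM + 1), 3 of them were called lower, since CREB3L1, CREB3L2 and CREB3L4 were not past the threshold. ATF6B and ATF6, sensors of ER stress, fell by 1.06 and 0.70 and GNPTAB, a lysosomal enzyme tagging gene, by 0.85 on the log2 scale. On log2(TPM + 1) ATF6 was at -0.17 (limma adjusted p = 0.02328) and GNPTAB at -0.56. CREB3L3 rose by 2.13 from a mean of 0.585 CPM, and by 1.06 on log2(TPM + 1). Of 9 genes for proteins with a sterol-sensing domain, SCAP among them, 6 fell and 2 rose (median -0.60). NPC1L1, the intestinal cholesterol importer, fell by 1.94 from a mean of 4.04 CPM (-0.70 on log2(TPM + 1)), and DISP2 rose by 1.29. NPC1, which exports cholesterol from lysosomes, rose by 0.72 on the log2 scale.

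On the oxysterol side, 9 of 10 tested LXR receptors, partners and targets fell, MYLIP among them, and APOE rose (median -0.75). The shares over all tested genes were 35.1% lower and 35.4% higher. APOE, an apolipoprotein, went from 40.74, 41.25 and 41.58 CPM to 165.4, 153.5 and 162.8 CPM. LPCAT3, a phospholipid remodelling enzyme, fell by 1.22, the receptor partner RXRA by 1.11 and the sterol exporter ABCG1 by 1.11 on the log2 scale. The fall of ABCA1 was small (-0.31) and depended on scaling. ABCA1 was at -0.10 without a scaling factor and not past the threshold on log2(TPM + 1) (-0.07, limma adjusted p = 0.4975). Among the substrates of MYLIP, VLDLR fell by 0.65 and LRP8 by 0.60 on the log2 scale (-0.39 and -0.37 on log2(TPM + 1)). Of 4 conjugating enzymes of the kind it works with, UBE2D1 and UBE2D2 rose by 0.35 and 0.22, UBE2D4 fell by 0.43 and UBE2D3 was not past the threshold (0.07). UBE2D3 was called higher without a scaling factor (0.27, edgeR adjusted p = 0.0001095), on log2(TPM + 1) (0.31, limma adjusted p = 0.0006926) and without DMSO replicate 1 (0.12, edgeR adjusted p = 0.03418). UBE2D1 and UBE2D2 were higher still without a scaling factor, at 0.56 and 0.43. UBE2D4 was not past the threshold on log2(TPM + 1) (-0.16, limma adjusted p = 0.07271).

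Of 14 tested genes of sterol traffic and esterification, 9 fell and 2 rose (median -0.31), against 35.1% and 35.4% of all tested genes. GRAMD1B, an ER protein that takes up cholesterol from the plasma membrane, fell by 1.27, STARD4, a soluble sterol carrier, by 1.08 and OSBPL2, an oxysterol-binding relative, by 0.55 on the log2 scale, and NPC1 was one of the 2 that rose. Without a scaling factor 5 of these 14 fell and 4 rose, and OSBPL2 was at -0.35.

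**Figure D4:**
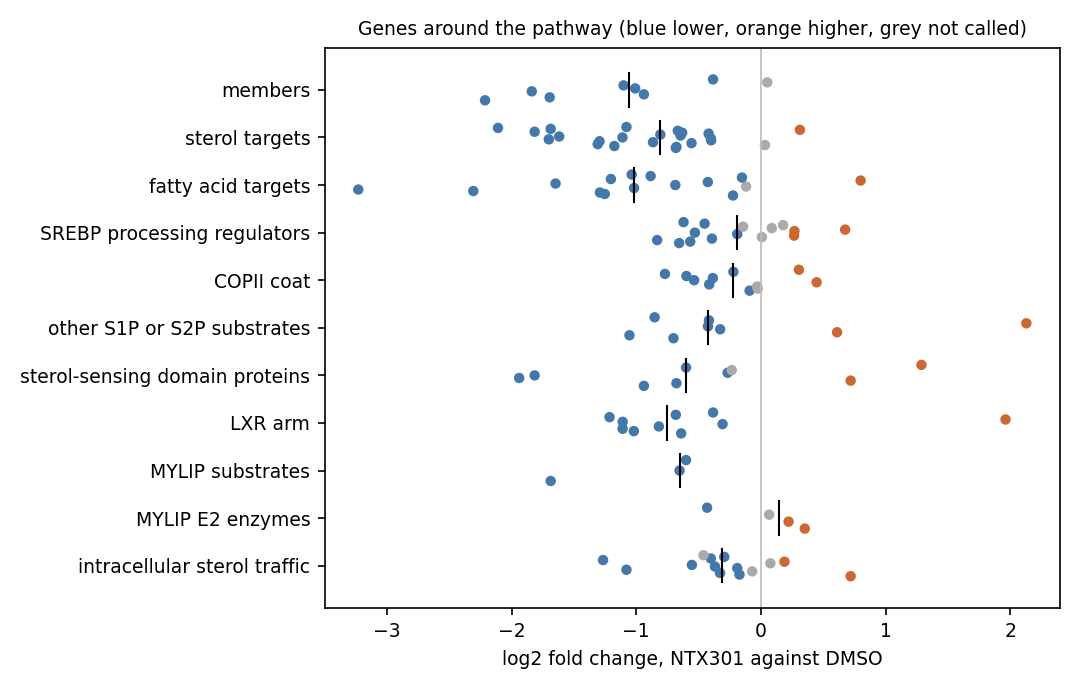
Each point is the log2 fold change of 1 tested gene, NTX301 against DMSO, with genes grouped by list, a bar at each median and colours for the edgeR call. The 8 genes (labelled members) and the sterol and fatty acid targets lie mostly to the left, with medians of -1.06, -0.81 and -1.02, and the ligases and coat genes have medians of -0.19 and -0.22.

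Tested genes within 100 kb of each of the 8 were listed by position. Near SREBF1 all 3 tested neighbours fell (RAI1, TOM1L2 and a noncoding gene), whereas of 8 near SREBF2 none fell in the edgeR test and 3 rose. The 2 tested neighbours of INSIG2 and 2 of 5 around MBTPS1 rose. Around SCAP 2 of 6 fell and 2 rose, around MBTPS2 1 of 3 fell, and the 1 near MYLIP fell. Over all tested genes 35.1% fell and 35.4% rose, and shares of so few neighbours are imprecise. INSIG1-DT, which starts 235 bases from INSIG1 on the other strand, was not past the threshold (log2 -0.16, edgeR adjusted p = 0.476), and it had 214 counts with DMSO and 212 with NTX301.

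Several properties of the libraries moved with treatment. TMM factors were 0.9206 to 0.939 with DMSO and 1.068 to 1.083 with NTX301, and mitochondrial transcripts took 8.32% to 9.75% and 6.48% to 7.40% of counts. Epithelial markers were present (EPCAM 79.3 CPM and KRT8 2251 CPM with DMSO), as labelled, and the summed level of 9 such markers went from 4509 to 4696 TPM down to 2766 to 2839 TPM, with 6 of 9 falling and 3 rising. Of 5 markers of ovarian carcinoma, WT1 was all but absent (0.0422 CPM with DMSO and 0.132 CPM with NTX301), and FOLR1 (14.4 and 11.6 CPM) and MUC16 (3.56 and 0.711 CPM) fell by edgeR but were not past the threshold on log2(TPM + 1). MSLN (4.84 and 4.51 CPM) and PAX8 (8.65 and 10.0 CPM) were not past the threshold (PAX8 was called higher on log2(TPM + 1)). PAX8 overlaps PAX8-AS1 on the other strand, which averaged more CPM, so the value of PAX8 is uncertain. Markers of leukocytes, endothelium and fibroblasts summed to 27.8 to 33.8 TPM with DMSO and 56.7 to 63.1 TPM with NTX301, with 4 of 6 tested rising and LUM falling. CD68, a lysosomal protein of macrophages, made up most of that sum and went from 27.8 to 46.1 CPM, and PDGFRB, a receptor of mesenchymal cells, went from 1.08 to 8.40 CPM. The endothelial genes CDH5 and VWF also rose, to 2.46 and 0.529 CPM, with VWF not past the threshold on log2(TPM + 1). PTPRC, a marker of leukocytes, and CD3E, a marker of T cells only, had no counts with DMSO. They had at most 4 and 1 counts in an NTX301 library, and DCN had at most 3 counts in any library. The part of these differences in the results was not tested.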

How the data were processed

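The authors deposited 1 gene table per library with the columns of RSEM, per the file headers. The deposited expected counts are RSEM's estimates of reads from each gene, without normalization. Deposited TPM values are scaled by the authors over all genes of a table and corrected for length. FPKM, also deposited by the authors, and effective length were left aside, and the deposited mean transcript length per gene was used as given. The aligner, tool versions, genome build, annotation and strand setting: not given in the sources used here. RSEM divides reads shared by several genes by its own estimate.

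The 47 pseudoautosomal entries of chromosome Y, with 0.0224% of counts, were added to their X copies. Symbols came from a table of stable identifiers (62639 of 62656 genes matched) and positions from GENCODE 29. Expected counts were rounded and tested with edgeR 4.0.16 (R 4.3.3): filterByExpr, TMM, then glmQLFit and glmQLFTest over the 6 libraries with 1 term for treatment, and Benjamini-Hochberg adjustment across 19029 genes. The SE of a fold change is its size over the square root of F. In simulated data for this comparison (19029 genes), 66, 67 and 67 genes were changed by 0.5, 1 and 2 on the log2 scale. Of these 72.7%, 74.6% and 100% were called, with 0.037% false calls among the unchanged genes. As 70.5% of genes were called in the real data, this simulation does not show the rate of false calls under so wide a change. Library pairs of a treatment gave a chi-square over degrees of freedom of 2.37 to 6.57, above sampling noise, so none was a copy of another. This value does not tell technical replicates from separate cultures. Depth was 22131175 to 25743732 counts per library, and the 8 genes had 564 to 11765 counts in each.

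Alternatives were DESeq2 1.42.0, no scaling factor, upper-quartile scaling, no filter on low counts, a replicate block, limma 3.58.1 on log2(TPM + 1), and leaving out each library. Genes named from a list were the 4 with the largest change among those called (all of a list of 4 or fewer), with exceptions stated, and the 3 nearest in profile to each of the 8; some of these genes, and 1 of the 7 ratios, are not reported here. The 8 genes and the lists were chosen with earlier results of these data known. Of 89 named genes and markers, 27 overlap a tested gene on the other strand. A 10 nM dose and methylation arrays that the labels mention were not analysed here.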

Additional observations from a re-analysis of the deposited data

How the results depend on the processing

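The fall of SREBF1, SREBF2, SCAP, INSIG1, INSIG2, MBTPS1 and MYLIP kept its direction and its side of the threshold in all 12 alternatives, and 7 of the 8 genes were called lower in each. MBTPS2 was called higher without a scaling factor (0.258) and on log2(TPM + 1) (0.249), which made 1 gene called higher in place of 0. The median of all tested genes was 0.206 and 0.169 on those scales. The count of the 8 genes lower by 2-fold or more was 3 on both scales against 5, and 4 to 5 with 1 library left out. On log2(TPM + 1), 4318 of all tested genes were called lower against 6677. Counts of genes called higher rose without a scaling factor and on log2(TPM + 1), in this order: sterol targets 2 and 2 against 1, processing regulators 6 and 5 against 3, COPII coat 5 and 5 against 2, sterol traffic 4 and 4 against 2, MYLIP conjugating enzymes 3 and 3 against 2. Fatty acid targets called higher were 2 against 1 on log2(TPM + 1). Counts called lower were 3 against 6 for other protease substrates and 0 against 1 for the MYLIP conjugating enzymes on log2(TPM + 1), and for sterol traffic 5 without a scaling factor and 4 on log2(TPM + 1) against 9. Leaving out 1 library gave 1 to 2 sterol traffic genes called higher, with 1 without DMSO replicate 3, NTX301 replicate 1 or NTX301 replicate 3. The difference in INSIG1 mean transcript length, -5.4 bases, ranged from -71.1 to 83.3 bases with 1 library left out, with 49.5 without DMSO replicate 3 and 83.3 without NTX301 replicate 2. MSLN, not called (-0.10), changed sign without a scaling factor (0.106), on log2(TPM + 1) (0.103) and without NTX301 replicate 3 (0.004; -0.198 to 0.004 with 1 library left out), and PHF23 (0.04) without DMSO replicate 3 (-0.001 to 0.066 with 1 library left out).

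Whether equal replicate numbers pair the libraries could not be settled with 3 libraries per treatment. Deviations from the treatment means correlated at 0.08, -0.028 and 0.043 for numbers 1, 2 and 3. For unequal numbers the correlations lay between -0.1 and 0.055. With a replicate block, 6749 genes were called lower and 6837 higher, against 6677 and 6744, and SREBF1 changed by -2.21. DMSO replicates 1 and 3 correlated best with the NTX301 library of their own number, and DMSO replicate 2 best with NTX301 replicate 3, at 0.055. The main fit took the numbers as names only, and a pairing is not excluded.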
